A study of Mus musculus with 12 samples.

Results

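T cell receptor alpha and beta variable segments (Trav and Trbv) were followed in ribosome-protected fragments (RPF) and total RNA of mouse CD4+ T cells. The members were the single-gene rows with a symbol starting Trav or Trbv and at least 10 raw counts summed over the 12 libraries, which gave 144 of 45669 rows. They were 121 Trav segments on chromosome 14 and 23 Trbv segments on chromosome 6. They were chosen by their symbol and their summed counts. The lowest inside the threshold were Trav15d-3 with 13 counts, Trav22 with 14 and Trav3n-2 with 18, and the highest outside it, Trbv25, Trav5d-3 and Trav5n-3, had 7 each. Of the 162 Trav and Trbv rows in the table, 18 were left out by the threshold. The annotation calls 128 of the members functional and 16 pseudogenes.

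The Anaef mice were C57BL6, 12 weeks old and homozygous for Anaef (Anaef/Anaef), an allele of Rasgrp1, the exchange factor that activates Ras below the T cell receptor. The WT mice (WT/WT) were of the same strain and age. CD4+ T cells were purified from lymph nodes. There were 2 Anaef RPF pools (3B and 4B) and 2 WT RPF pools (1B and 2B), each of 2 pooled samples, whose cells had been treated with cycloheximide for 1 minute. There were 4 Anaef total RNA libraries (replicates 5 to 8) and 4 WT total RNA libraries (replicates 1 to 4), each from 20000 cells. The labels do not say which animals entered which pool, so the p-values below speak only of how these samples spread, which may be technical in part.

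A T cell builds its receptor by joining 1 variable segment to a joining segment in the alpha locus, and to a diversity and a joining segment in the beta locus, before splicing to a constant region. Each mature CD4+ cell usually carries a single functional beta chain, and the variable part touches both the peptide and the MHC molecule. The share of each segment among the transcripts of its chain is called its usage. In bulk libraries a segment used by fewer cells and a segment with less RNA per cell cannot be told apart.

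RPF libraries held 2868943 to 3464868 counts in Anaef and 4044330 to 7009342 in WT, and total RNA libraries 18580747 to 39467754 in Anaef and 15326842 to 40046317 in WT. The members took a small part of these. Trav counts were 12933 to 17669 in Anaef RPF, 16130 to 23775 in WT RPF, 18139 to 44937 in Anaef total RNA and 8597 to 44585 in WT total RNA. Trbv counts were 2973 to 4106, 3958 to 5061, 3630 to 8041 and 1871 to 7593 in the same order of groups. WT total RNA replicate 3 was the shallowest for both chains. Defining markers of CD4+ T cells were present: 8 CD4 T cell genes summed to 7056 to 7458 CPM (counts scaled to a common library size) in Anaef RPF and 6490 to 7456 CPM in WT RPF, against 17.2 to 18.1 CPM and 17.1 to 21.8 CPM for the pair Cd8a and Cd8b1.

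The sequences of segments show which rows could be told apart by short reads. They were read from GENCODE M21 coding transcripts on GRCm38 and are written 5′ to 3′. The first set holds the 3 members of the Trbv13 family, the family with the leading beta segment; capitals mark bases that differ from Trbv13-2. The stretches lie at chr6:41121751-41121810 for Trbv13-2, chr6:41116387-41116446 for Trbv13-1 and chr6:41130504-41130563 for Trbv13-3, all on the plus strand.
Trbv13-2: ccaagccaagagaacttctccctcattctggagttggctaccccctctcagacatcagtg
Trbv13-1: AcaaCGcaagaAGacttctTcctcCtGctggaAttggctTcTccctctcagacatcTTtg
Trbv13-3: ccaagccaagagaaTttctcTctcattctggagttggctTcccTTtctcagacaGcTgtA
In these 60 bases Trbv13-1 differed from Trbv13-2 at 13 and Trbv13-3 at 8. Over the coding sequence Trbv13-2 was 88.7% identical to Trbv13-1, 90.6% to Trbv13-3 and 60.2% to Trbv2. The stretches shown thus differ more per base than the coding sequences as a whole.

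The second set shows the copies of the alpha locus, where a stretch of segments is present several times, with d or n in the names of the copies. The stretches lie on the plus strand at chr14:53538491-53538550 for Trav12-1, chr14:52844794-52844853 for Trav12d-1 and chr14:53155841-53155900 for Trav12n-1. Those of the Trav14 family, which led the alpha footprints, lie at chr14:53554285-53554344 for Trav14-1, chr14:52855893-52855952 for Trav14d-1 and chr14:53166905-53166964 for Trav14n-1. Capitals mark bases that differ from Trav12-1 or from Trav14-1.
Trav12-1: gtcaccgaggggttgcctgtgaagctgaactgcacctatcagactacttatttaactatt
Trav12d-1: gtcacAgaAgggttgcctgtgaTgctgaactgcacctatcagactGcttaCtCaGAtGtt
Trav12n-1: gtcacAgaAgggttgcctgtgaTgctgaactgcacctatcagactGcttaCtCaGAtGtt
Trav14-1: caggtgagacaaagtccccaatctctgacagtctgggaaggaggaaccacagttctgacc
Trav14d-1: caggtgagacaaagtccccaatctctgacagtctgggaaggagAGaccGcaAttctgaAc
Trav14n-1: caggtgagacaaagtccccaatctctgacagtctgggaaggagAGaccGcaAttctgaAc
The d and n copies were the same in every base of these stretches and of the coding sequence (100% identity). Over the coding sequence the copy without a letter was 95.1% identical to Trav12d-1 and 95.6% to Trav14d-1. Here too the stretches of the copy without a letter differ more per base than its coding sequence as a whole.

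Another set shows the end of 6 beta segments, where the segment is joined to the rest of the receptor gene. Capitals mark the last in-frame cysteine codon, where the hypervariable CDR loop at the joint begins. They lie at chr6:41121788-41121832 (Trbv13-2), chr6:41047951-41047995 (Trbv2), chr6:41119320-41119364 (Trbv12-2), chr6:41271837-41271881 (Trbv29) and chr6:41227949-41227993 (Trbv26) on the plus strand, and at chr6:41557693-41557737 (Trbv31) on the minus strand.
Trbv13-2: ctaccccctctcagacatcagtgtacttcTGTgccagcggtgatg
Trbv2: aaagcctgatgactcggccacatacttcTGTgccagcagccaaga
Trbv12-2: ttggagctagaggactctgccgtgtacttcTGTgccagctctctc
Trbv29: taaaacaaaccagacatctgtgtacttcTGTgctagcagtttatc
Trbv26: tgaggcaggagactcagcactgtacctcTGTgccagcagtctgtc
Trbv31: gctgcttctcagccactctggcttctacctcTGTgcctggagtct
The first 3 led total RNA, Trbv29 and Trbv26 had the largest ratio of footprints to RNA in WT, and Trbv31 is the segment that lies beyond the constant regions in the opposite orientation.

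Reads of 50 bases from a Trav segment often match other Trav segments. For the 121 Trav members the median share of 50-base transcript windows that another segment also holds was 60.6%, and 37 members shared all of them. Of the Trbv members, 19 of 23 shared none. For windows of 28 bases, about the length of a footprint, the Trav median was 81.1%, 39 Trav members shared all, and 17 of 23 Trbv members shared none. Of the 108 functional Trav members, 30 had a copy with an identical coding sequence, in 15 pairs, and 14 of these pairs had the same RPF count in all 4 RPF libraries. No functional Trbv member had such a copy. Values of single Trav rows are therefore uncertain, since the same reads can stand in the rows of several copies, and families are given beside them. A family sum can hold such reads more than once.

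Beta segment usage in total RNA was led by Trbv13-2. It took 44.0%, 62.4%, 40.6% and 40.5% of Trbv counts in Anaef replicates 5 to 8, against 35.8%, 36.4%, 36.5% and 30.8% in WT replicates 1 to 4. All 4 Anaef libraries lay above all WT libraries, and Anaef replicate 6 stood far above the other Anaef libraries. Trbv2, the first functional segment downstream of Trbv1, took 14.4%, 9.49%, 19.8% and 19.4% in Anaef and 22.8%, 23.7%, 23.8% and 22.5% in WT. Here all Anaef libraries lay below all WT libraries. By CPM they overlapped, with Trbv2 at 27.6, 18.5, 36.5 and 33.2 CPM in Anaef and 37.0, 39.1, 35.2 and 34.5 CPM in WT. Trbv12-2 took 12.2%, 11.1%, 13.0% and 9.75% in Anaef and 10.6%, 8.74%, 11.7% and 10.8% in WT, so the groups overlapped. These 3 segments together took 69.6% to 83.0% of Trbv counts in Anaef total RNA and 64.1% to 72.0% in WT total RNA.

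**Figure D1:**
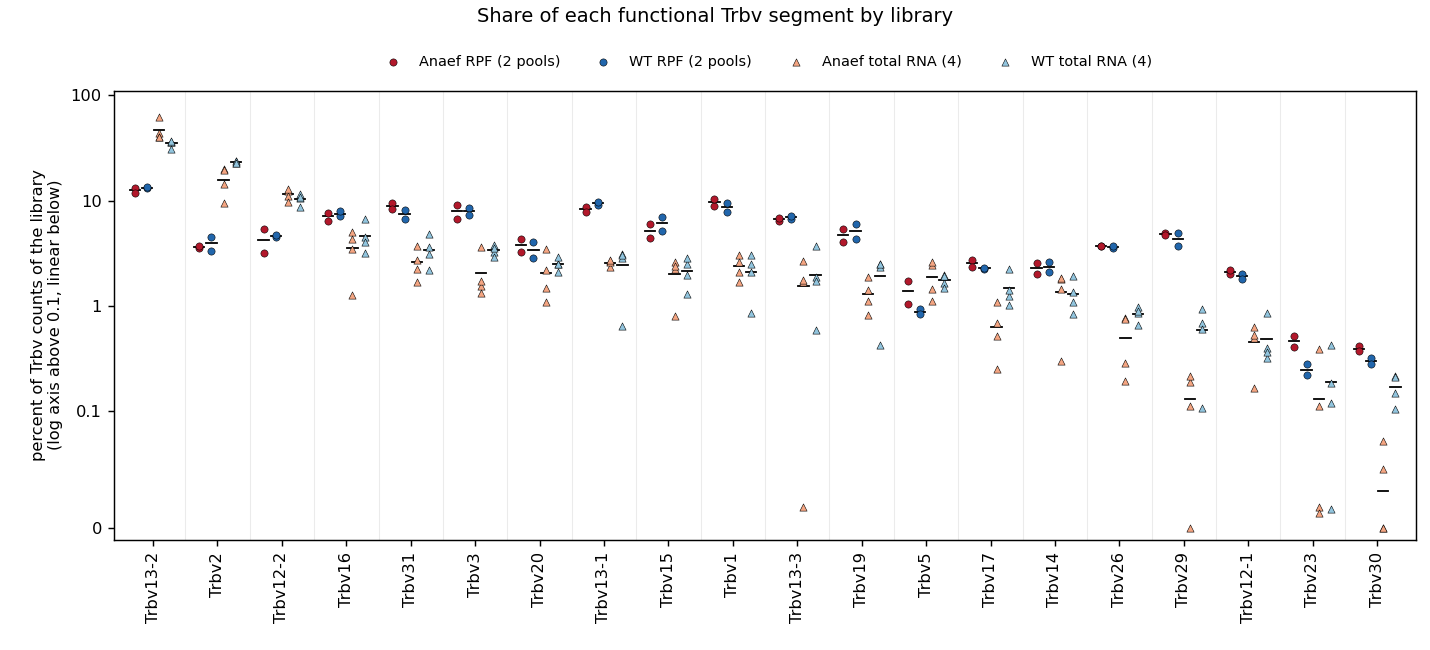
Percent of the Trbv counts of a library (y axis, logarithmic above 0.1 and linear below) for each functional Trbv segment (x axis, ordered by the WT total RNA mean), with 1 point per library for the Anaef RPF, WT RPF, Anaef total RNA and WT total RNA groups and a line at each group mean. Trbv13-2 lies at 40.5% to 62.4% in Anaef total RNA and 30.8% to 36.5% in WT total RNA but at 11.7% to 13.2% in Anaef RPF and 13.0% to 13.5% in WT RPF, and Trbv29 lies higher in every RPF pool than in every total RNA library.

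Footprints were spread more evenly over the beta segments. Trbv13-2 took 13.2% and 11.7% of Trbv counts in Anaef RPF, and 13.0% and 13.5% in WT RPF. Trbv2 took 3.51% and 3.73% in Anaef RPF and 4.52% and 3.31% in WT RPF, and Trbv12-2 took 5.36% and 3.16% in Anaef RPF and 4.47% and 4.72% in WT RPF. All RPF libraries lay below all total RNA libraries of their genotype for these 3 segments. Together the 3 leading segments of each library took 31.5% and 31.3% of Trbv counts in Anaef RPF and 30.6% and 32.6% in WT RPF.

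Segments that were rare in total RNA took larger shares of footprints. Trbv29 had 4.92% and 4.71% of Trbv counts in Anaef RPF, against 0.110%, 0%, 0.187% and 0.217% in Anaef total RNA. In WT it had 4.88% and 3.69% in RPF and 0.690%, 0.606%, 0.107% and 0.940% in total RNA. The count of 0 among the 5669 Trbv counts of Anaef replicate 6 allows a share of up to 0.0529%, a limit that covers counting error only. Trbv26 had 3.73% and 3.70% in Anaef RPF against 0.194% to 0.771% in Anaef total RNA, and 3.52% and 3.69% in WT RPF against 0.659% to 0.970% in WT total RNA. For both segments the 2 assays did not overlap in either genotype.

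The segments at either end of the beta locus followed the same order. Trbv1, the segment farthest upstream, had 8.89% and 10.4% in Anaef RPF against 1.69% to 3.03% in Anaef total RNA, and 7.82% and 9.42% in WT RPF against 0.855% to 3.03% in WT total RNA. Trbv31 had 9.45% and 8.27% in Anaef RPF against 1.69% to 3.72% in Anaef total RNA, and 6.72% and 8.11% in WT RPF against 2.19% to 4.81% in WT total RNA. Trbv13-1 and Trbv13-3, the relatives of Trbv13-2, were also higher in footprints. Trbv13-1 had 8.62% and 7.84% in Anaef RPF against 2.31% to 2.72% in Anaef total RNA, and 9.09% and 9.68% in WT RPF against 0.641% to 3.12% in WT total RNA. Trbv13-3 had 6.43% and 6.79% in Anaef RPF against 0.0176% to 2.67% in Anaef total RNA, the lowest being replicate 6, and 6.70% and 7.12% in WT RPF against 0.588% to 3.66% in WT total RNA. Of the 20 functional Trbv segments, the RPF share lay above all total RNA libraries in 15 and below all of them in 3 in Anaef, and above in 14 and below in 4 in WT. Of the 108 functional Trav segments, it lay above in 24 and below in 27 in Anaef, and above in 27 and below in 32 in WT.

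The remaining functional beta segments ranged from frequent to rare. Trbv3 had 6.72% and 9.12% in Anaef RPF against 1.32% to 3.59% in Anaef total RNA, and 8.44% and 7.30% in WT RPF against 2.93% to 3.82% in WT total RNA. Trbv19 had 4.04% and 5.35% in Anaef RPF against 0.811% to 1.89% in Anaef total RNA, and 6.03% and 4.35% in WT RPF against 0.428% to 2.48% in WT total RNA. Trbv15 had 4.43% and 5.92% in Anaef RPF against 0.794% to 2.61% in Anaef total RNA, and 6.97% and 5.15% in WT RPF against 1.28% to 2.85% in WT total RNA. These 3 segments were higher in footprints in both genotypes without overlap. Trbv20 had 4.34% and 3.23% in Anaef RPF against 1.09% to 3.49% in Anaef total RNA, and 2.83% and 3.99% in WT RPF against 2.09% to 2.89% in WT total RNA, so its assays overlapped. Trbv5 had 1.70% and 1.04% in Anaef RPF against 1.12% to 2.59% in Anaef total RNA, and 0.929% and 0.834% in WT RPF against 1.46% to 1.94% in WT total RNA. It was the 1 segment beside the leading 3 whose WT footprint share lay below every WT total RNA library. In RPF Trbv23 and Trbv30 were the least used functional segments, and Trbv30 had 0.414% and 0.370% in Anaef RPF against at most 0.0746% in Anaef total RNA, and 0.316% and 0.278% in WT RPF against 0.105% to 0.214% in WT total RNA.

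Levels of different segments can be set side by side only per length, so each count was divided by the coding length (RPF) or transcript length (total RNA) and expressed as a share of the chain. On this length-adjusted scale Trbv13-2 ranked first of the 20 in every group, at 12.7% ± 1.04 in Anaef RPF and 13.5% ± 0.312 in WT RPF (SD, n = 2 pools each), and at 52.7% ± 9.96 in Anaef total RNA and 40.9% ± 3.07 in WT total RNA (SD, n = 4 each). The second rank went to Trbv1 in Anaef RPF (9.52% ± 1.08) and Trbv13-1 in WT RPF (9.61% ± 0.417), and in total RNA to Trbv12-2 in Anaef (11.5% ± 1.56) and Trbv2 in WT (16.5% ± 0.426). In Anaef RPF each of Trbv1, Trbv31, Trbv13-1 and Trbv3, ranks 2 to 5, overlapped with the next. Trbv2 ranked 14 in Anaef RPF and 12 in WT RPF, against 3 in Anaef total RNA and 2 in WT total RNA. Trbv29 ranked 9 in Anaef RPF and 10 in WT RPF, against 19 in Anaef total RNA and 17 in WT total RNA.

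**Figure D2:**
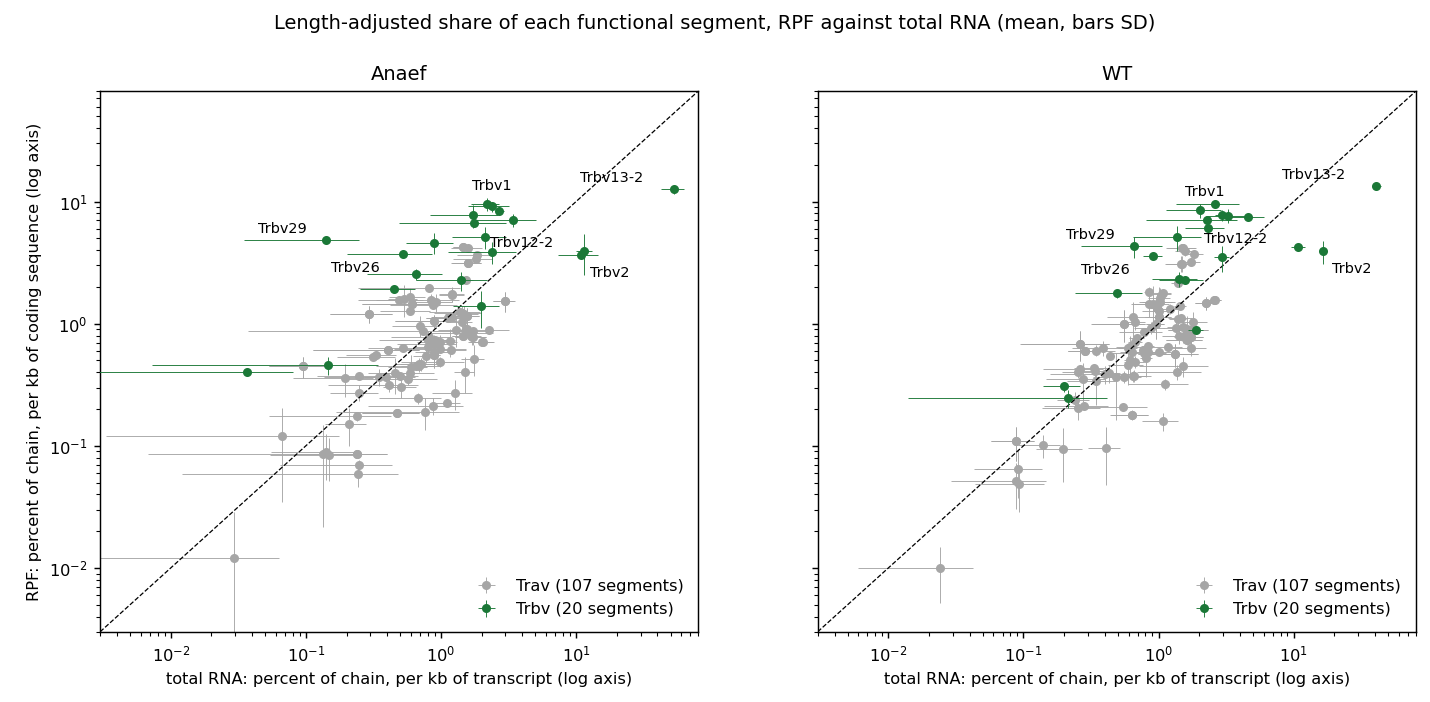
Length-adjusted share of each functional segment in RPF (y axis, percent of its chain, per kb of coding sequence) against total RNA (x axis, percent of its chain, per kb of transcript), both logarithmic, in Anaef and WT, with points at group means, bars for the SD and a dashed line of equal shares. Trbv13-2 lies right of the line in both panels, at 12.7% against 52.7% in Anaef and 13.5% against 40.9% in WT, and Trbv29 lies far above it, at 4.83% against 0.142% in Anaef and 4.30% against 0.662% in WT.

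The evenness of usage was summarised by the effective number of segments, the exponential of the Shannon entropy of the shares. For Trbv it was 16.3 and 15.9 in Anaef RPF and 15.8 and 15.6 in WT RPF. In total RNA it was 7.46, 4.35, 7.49 and 7.76 in Anaef replicates 5 to 8 and 8.29, 8.13, 7.35 and 9.54 in WT replicates 1 to 4. The total RNA groups overlapped at WT replicate 3, and their means were 6.76 ± 1.61 in Anaef and 8.33 ± 0.909 in WT (SD, n = 4 each). The difference of −1.56 was −0.757 without Anaef replicate 6, and with Trbv13-2 left out of the chain it was 0.127. For Trav the effective number was 72.5 and 74.2 in Anaef RPF and 74.2 and 75.3 in WT RPF, and in total RNA 85.2 to 89.0 in Anaef and 84.7 to 94.4 in WT. By this measure alpha usage was less even in footprints than in total RNA in all libraries. The measure takes in 13 Trav pseudogenes, which had total RNA counts but no RPF counts, and counts copies that share reads as separate rows.

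**Figure D3:**
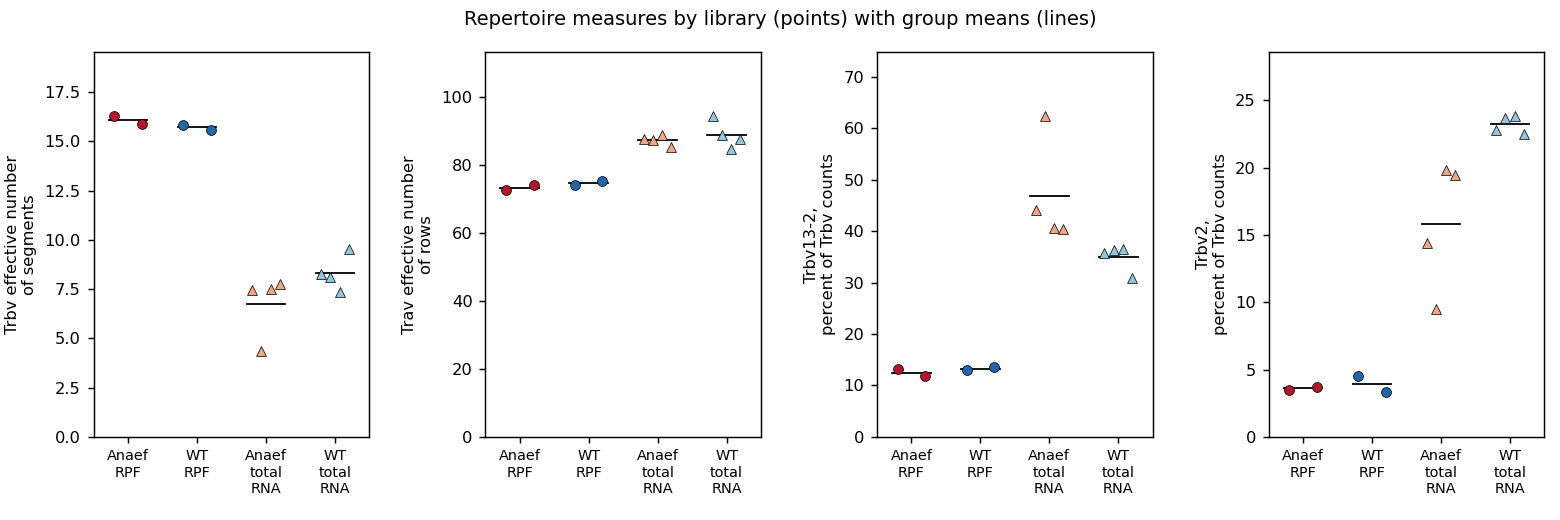
Repertoire measures by library (points) with group means (lines), for the Anaef RPF, WT RPF, Anaef total RNA and WT total RNA groups, in panels for the effective number of Trbv segments, that of Trav rows, and the shares of Trbv13-2 and Trbv2 in percent of Trbv counts. The Trbv effective number lies at 15.6 to 16.3 in all 4 RPF pools and at 4.35 to 9.54 in the total RNA libraries.

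The 2 assays were compared by edgeR's quasi-likelihood test with Benjamini-Hochberg adjustment over all rows, on the scale of library sizes scaled by TMM (the trimmed mean of M values). In Anaef 89 of 136 tested members were called, 81 higher and 8 lower in RPF, where 67.1% of all 18032 rows tested were called (16.4% higher and 50.8% lower). In WT 96 of 134 were called, 87 higher and 9 lower, where 74% of 17775 rows were called (19.6% higher and 54.4% lower). The median log2 ratio of RPF over total RNA in Anaef was 3.60 for 21 Trbv segments and 1.09 for 115 Trav segments, against −1.79 for all rows. In WT it was 2.73 for 20 Trbv segments and 1.07 for 114 Trav segments, against −1.62. Rows without a coding sequence have almost no footprints, so rows with one give a closer background. Their medians were −0.41 in Anaef and −0.29 in WT, with 22.9% and 27.3% called higher and 35.1% and 38.1% called lower.

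The direction of these ratios depends on the scale. With the library size set to the summed Trav and Trbv counts, so that the ratio compares usage among variable segments, the median of all rows moved to −3.44 in Anaef and −3.04 in WT. On that scale 27 members were higher and 27 lower in Anaef, and 29 higher and 35 lower in WT. Of the Trbv segments 13 were higher and 4 lower in Anaef and 12 higher and 3 lower in WT, in place of 17 higher and 0 lower in Anaef and 16 higher and 1 lower in WT on the TMM scale. The lower ones were Trbv2, Trbv12-2 and Trbv13-2 in both genotypes and the pseudogene Trbv24 in Anaef.

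Trbv29 had the largest ratio of the beta segments. Its log2 ratio of RPF over total RNA was 7.02 (SE 0.78) in Anaef and 4.49 (SE 0.53) in WT on the TMM scale, and 5.42 and 3.16 on the usage scale. The counts behind it were 202 and 140 in Anaef RPF against 4, 0, 15 and 13 in Anaef total RNA, and 247 and 146 in WT RPF against 42, 46, 2 and 36 in WT total RNA. Trbv26 had 4.72 in Anaef and 3.82 in WT, and Trbv1 had 3.84 in Anaef and 3.73 in WT. All 3 were called in both genotypes and on both scales.

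The 3 segments that led total RNA had the smallest ratios of the functional beta segments. For Trbv13-2 the log2 ratio was −0.09 (SE 0.27, adjusted p = 0.788) in Anaef and 0.33 (SE 0.19, adjusted p = 0.146) in WT, and on the usage scale −1.77 in Anaef (adjusted p = 0.00124) and −1.10 in WT (adjusted p = 0.00319). Trbv2 had −0.29 (SE 0.32, adjusted p = 0.446) in Anaef and −0.87 (SE 0.18, adjusted p = 0.00292) in WT. Its values on the usage scale were −1.92 in Anaef and −2.29 in WT, both called. Trbv12-2 passed the test as higher in RPF in WT on the TMM scale (0.55, SE 0.21, adjusted p = 0.0466) and as lower on the usage scale (−0.89, adjusted p = 0.0206), so its direction is set by the scaling. The TMM call in WT was lost with no filter on low counts and without any of 5 of the 6 WT libraries. In Anaef Trbv12-2 had 0.42 (SE 0.33, adjusted p = 0.282) on the TMM scale and −1.26 (adjusted p = 0.00753) on the usage scale.

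Across the functional segments the ratio of shares in WT did not follow length. Spearman's rho with transcript length was −0.07 over 18 Trbv and −0.05 over 106 Trav segments, and with the coding part of the transcript 0.07 and 0.06. The annotated transcripts ran from 335 to 566 bases for Trbv and 328 to 595 for Trav. Shares of the 20 functional Trbv segments correlated at rho 0.93 to 0.97 between RPF pools and 0.72 to 0.97 between total RNA libraries, but at 0.35 to 0.77 between an RPF pool and a total RNA library. For the 108 functional Trav segments the same ranges were 0.94 to 0.97, 0.64 to 0.95 and 0.47 to 0.76. These are descriptions across segments, which share the library, the preparation and, for Trav, reads. The preparation differed between assays in kit and fragment length, and the part of these in the difference of usage cannot be told apart from that of ribosome occupancy.

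The genotypes were compared within each assay by the same edgeR test. In total RNA none of 133 tested members was called, where 0.0224% of 17876 rows were called, and DESeq2 called none. At an unadjusted p under 0.05 edgeR gave 3 members higher and 0 lower in Anaef, against 5.62% of all rows. The 3 were Trbv13-2, Trav15n-2 and Trav15d-2-dv6d-2, of which the Trav15 pair are copies with nearly the same counts. The median log2 fold change of Anaef over WT was −0.06 for 19 Trbv and 0.09 for 114 Trav segments, against 0.01 for all rows.

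Trbv13-2 had the smallest p. It stood at 84.3, 122, 74.8 and 69.0 CPM in Anaef total RNA and at 57.9, 60.1, 54.0 and 47.2 CPM in WT total RNA. All Anaef libraries lay above all WT libraries, which held for 1 of the 133 members, where 1.58% of all rows lay wholly above and 2.01% wholly below. On the log2 scale Anaef over WT stood at 0.67 (SE 0.20, adjusted p = 0.652), and at 0.47 without Anaef replicate 6. In RPF it stood at 155 and 121 CPM in Anaef and 97.2 and 129 CPM in WT, which overlapped, and Anaef over WT was 0.29 on the log2 scale (SE 0.20, adjusted p = 0.610).

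Other segments did not pass either. For Trbv2 Anaef over WT was −0.33 on the log2 scale in total RNA (SE 0.22, adjusted p = 0.934), although its share of Trbv counts was lower in all 4 Anaef libraries. Trbv29 had −1.99 (SE 0.93, adjusted p = 0.887) on counts of at most 46 per library. Trav15n-2, a segment of the family shared with the delta chain, took 0.413%, 0.340%, 0.129% and 0.0931% of Trav counts in Anaef and 0.0957%, 0.101%, 0.116% and 0.0439% in WT. Its log2 fold change was 1.48 (SE 0.59, adjusted p = 0.840), and 3 WT libraries lay above Anaef replicate 8. Trav4n-3 and its copy Trav4d-3 had −1.30 and −1.29.

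In RPF none of 126 tested members was called, where 0% of 9710 rows were called, and DESeq2 called none. At an unadjusted p under 0.05 there were 29 members higher and 0 lower in Anaef, against 11.9% of all rows. Copies with the same RPF counts, such as Trav14d-1 and Trav14n-1, entered this tally as separate members. With families summed, 9 of 36 tested families had an unadjusted p under 0.05. The median log2 fold change of the members was 0.38, with 114 members above 0 and 12 below. It was 0.40 for the 20 Trbv segments, all of which lay above 0. All-row values had a median of 0.01. On the scale of the summed Trav and Trbv counts the member median was 0.00, with 63 members above 0 and 63 below and 11 of 20 Trbv above 0, while the median of all rows moved to −0.37.

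Beside these values, the summed variable segments took a larger part of Anaef footprints. Trav rows held 0.510% and 0.451% of the counts in Anaef RPF, and 0.339% and 0.399% in WT RPF. Trbv rows held 0.119% and 0.104% in Anaef RPF, and 0.0722% and 0.0979% in WT RPF. In both chains the Anaef pools lay above the WT pools. In total RNA the ranges overlapped, with Trav at 0.0683% to 0.117% in Anaef and 0.0561% to 0.111% in WT, and Trbv at 0.0152% to 0.0209% in Anaef and 0.0122% to 0.0190% in WT.

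Markers of antibody-making cells were lower in Anaef. Immunoglobulin rows held 2.54% and 0.789% of the counts in Anaef RPF and 8.08% and 3.16% in WT RPF. The 4 plasma cell genes summed to 1262 to 3882 CPM in Anaef RPF and 7452 to 8596 CPM in WT RPF, with 3 of 4 below WT in every pool. The 5 B cell genes summed to 17.7 to 29.2 CPM in Anaef RPF and 37.1 to 72.3 CPM in WT RPF, with 5 of 5 below, and no gene of either list was at 0 in all pools of a group. In total RNA the plasma cell genes summed to 61.3 to 123 CPM in Anaef and 280 to 413 CPM in WT. The B cell genes overlapped there, at 9.09 to 25.8 CPM in Anaef and 23.3 to 41.8 CPM in WT, with 1 of 5 below. The part of these cells in the segment values was not tested.

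By CPM in RPF, 66 of 106 Trav and 14 of 20 Trbv segments lay wholly above WT in Anaef, where 22.2% of all rows did, and 2 Trav segments lay wholly below, where 22.5% of all rows did. The pair below were Trav4-2 and Trav15-1-dv6-1. Trav copies with the same RPF counts stand as separate rows in these tallies, so the Trav rows are not independent. The Trav12-2 row, from a family that is also frequent in total RNA, had the smallest p: 44.0 and 36.2 CPM in Anaef RPF against 19.9 and 27.4 CPM in WT RPF. Its log2 fold change was 0.78 (SE 0.23, adjusted p = 0.344), and 0.76 (adjusted p = 0.0318) with no filter on low counts, where it passed. Trav13-4-dv7 had 30.9 and 33.4 CPM in Anaef and 20.8 and 20.8 CPM in WT, a log2 fold change of 0.63 (SE 0.19), and did not pass. The log2 fold change of Trav14d-3-dv8 was 0.47 (SE 0.15), and its CPM were 223 and 193 in Anaef and 151 and 150 in WT.

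**Figure D4:**
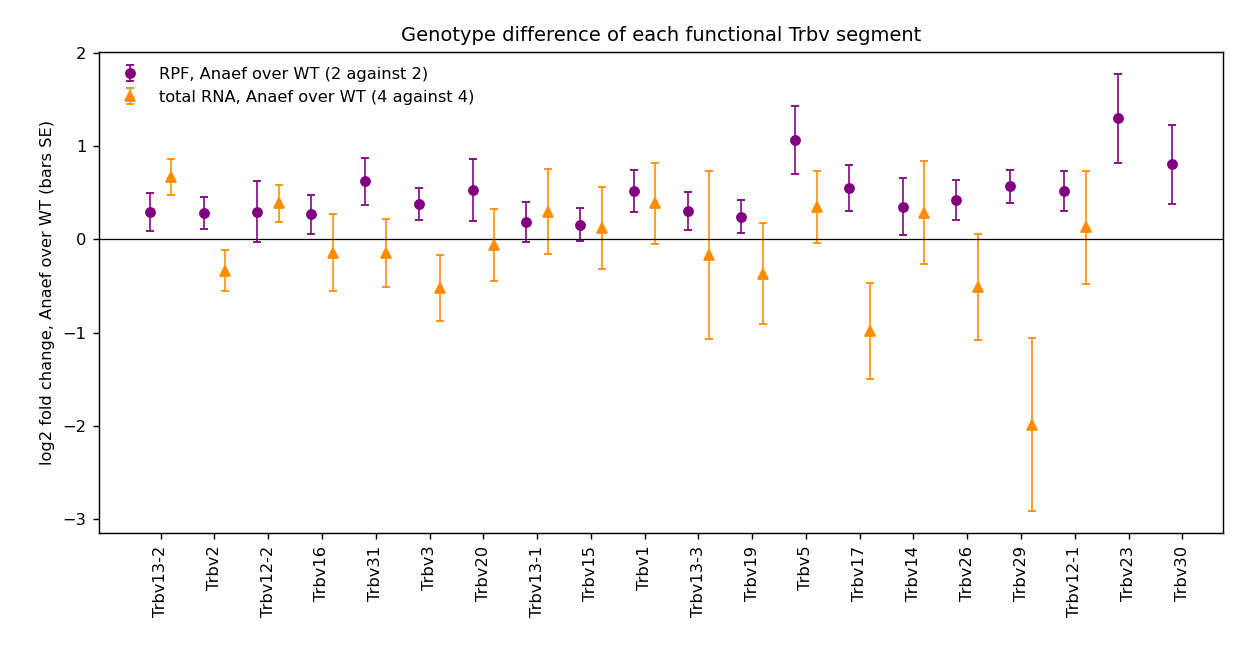
Log2 fold change of Anaef over WT (y axis) for each functional Trbv segment (x axis) in RPF and in total RNA, from edgeR on the TMM scale, with bars for the SE. All 20 RPF values lie above 0, the 18 total RNA values (Trbv23 and Trbv30 were not tested there) lie on both sides of 0, and none passed the test in either assay; on the scale of summed segment counts 11 of the 20 RPF values lie above 0.

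The difference between the assays in the genotype change was tested as an interaction, which shares the libraries of both comparisons. None of 135 tested members was called, where 0% of 19031 rows were called and 3.34% had an unadjusted p under 0.05, against 2 members. DESeq2 called none. The 2 members were Trbv29 with an interaction of 2.54 (SE 1.00, adjusted p = 1.00) and Trbv17 with 1.51. The log2 fold change of Anaef over WT was 0.57 in RPF and −1.99 in total RNA for Trbv29, and 0.55 in RPF and −0.99 in total RNA for Trbv17.

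Alpha usage was spread over many rows, with no row above 4.62% of the Trav counts of a library. Families are given beside the rows because their copies share reads. A read that stands in several copies can enter the family sum more than once. The median share of Trav windows that another segment also holds was 81.1% at footprint length and 60.6% at total RNA read length. Whether window length alone gives this difference was not tested. Repeated counting may differ between the assays, and its part in the family differences cannot be told from these sums. Trav14 held 31.6% ± 0.260 of Trav counts in Anaef RPF and 30.7% ± 2.60 in WT RPF (SD, n = 2 each), against 14.5% ± 1.27 in Anaef total RNA and 14.0% ± 2.48 in WT total RNA (SD, n = 4 each). The 9 Trav14 rows were each called as higher in RPF over total RNA in both genotypes on the TMM scale, Trav14d-1 with a log2 ratio of 3.13 (SE 0.25) in Anaef and 2.82 (SE 0.19) in WT. On the usage scale they kept that direction, with 7 of 9 called in Anaef and 9 of 9 in WT.

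Other families that were frequent in total RNA were lower in footprints. Trav12 held 6.93% in Anaef RPF and 6.52% in WT RPF, against 12.7% in Anaef total RNA and 14.5% in WT total RNA. Trav7 held 8.23% in Anaef RPF and 8.42% in WT RPF, against 15.0% and 13.5% in Anaef and WT total RNA. Trav10 held 2.52% in Anaef RPF and 2.84% in WT RPF, against 5.57% in Anaef total RNA and 4.79% in WT total RNA. For these 3 families the RPF pools lay below every total RNA library.

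The Trav9 family held 15.3% and 12.7% in Anaef RPF and 9.93% and 15.4% in WT RPF, which overlapped. In total RNA it held 8.90%, 3.35%, 6.89% and 8.33% in Anaef and 10.3%, 11.5%, 8.21% and 10.9% in WT, with the WT replicate 3 value below those of Anaef replicates 5 and 8. Anaef replicate 6 was the lowest library. Among single rows, Trav4d-3 had a log2 ratio of RPF over total RNA of 3.95 in Anaef and 2.96 in WT, and Trav7-1, at −0.48 in Anaef and −1.27 in WT (adjusted p = 0.0363 in WT), was the functional Trav row called as lower in WT. This call was lost without any of 5 of the 6 WT libraries.

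**Figure D5:**
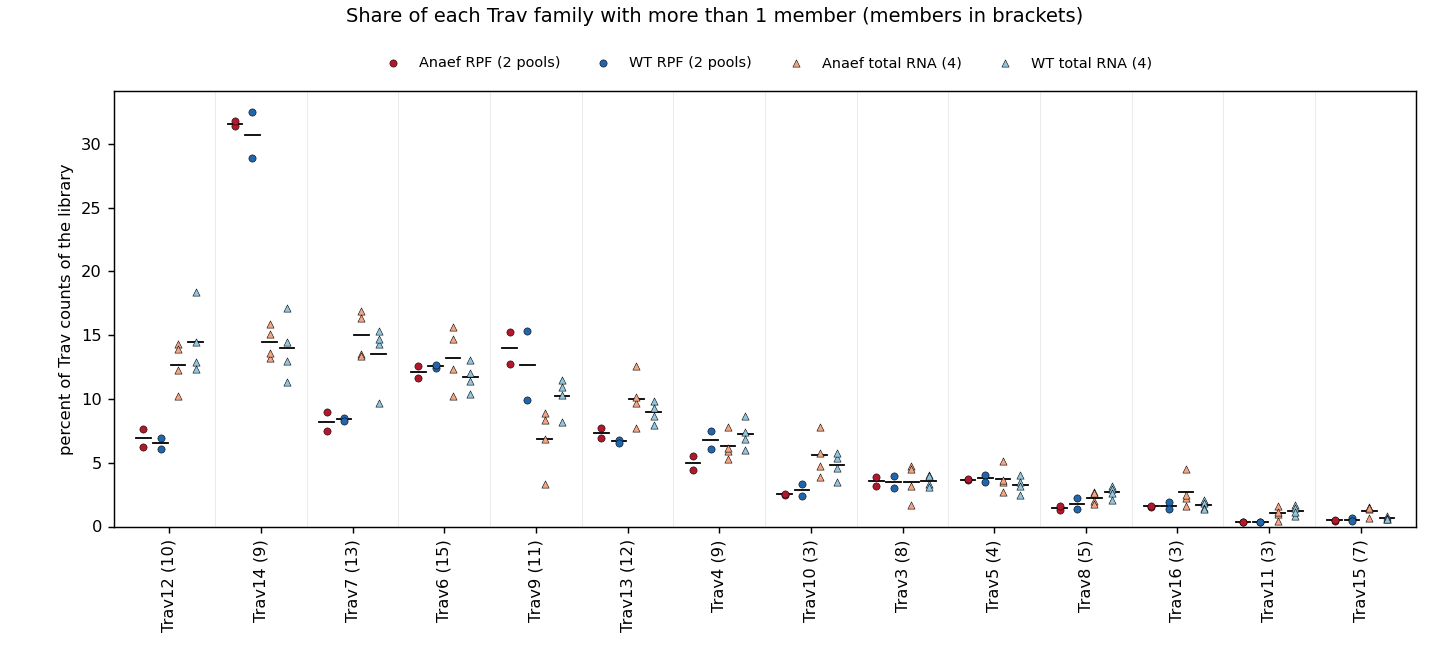
Percent of the Trav counts of a library (y axis) for each Trav family with more than 1 member (x axis, number of members in brackets), with 1 point per library for the Anaef RPF, WT RPF, Anaef total RNA and WT total RNA groups and a line at each group mean. Trav14 lies at 28.9% to 32.5% in the RPF pools and at 11.3% to 17.2% in the total RNA libraries, and Trav12 and Trav7 lie higher in total RNA.

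Trav6, the family with the most members, had overlapping shares in the assays. It held 12.1% ± 0.675 in Anaef RPF and 12.5% ± 0.129 in WT RPF (SD, n = 2 each), against 13.2% ± 2.43 in Anaef total RNA and 11.7% ± 1.12 in WT total RNA (SD, n = 4 each). Trav5 held 3.68% in Anaef RPF and 3.77% in WT RPF, against 3.75% in Anaef total RNA and 3.28% in WT total RNA. Trav4 held 4.47% and 5.51% in Anaef RPF and 6.09% and 7.52% in WT RPF, and 5.29% to 7.78% in Anaef total RNA and 6.02% to 8.67% in WT total RNA. Its Anaef RPF pools lay below the WT pools, while the total RNA groups overlapped. Trav15 held 0.441% and 0.541% in Anaef RPF and 0.656% and 0.403% in WT RPF, and 1.37%, 1.56%, 1.43% and 0.646% in Anaef total RNA and 0.851%, 0.689%, 0.593% and 0.610% in WT total RNA. Anaef replicates 5 to 7 lay above all WT libraries and replicate 8 lay among them.

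The most used single alpha rows in total RNA came mostly from these families, and several had copies with shared counts. Trav7-2 held 1.89%, 2.94%, 2.72% and 2.58% of Trav counts in Anaef total RNA and 1.82%, 2.39%, 2.22% and 2.37% in WT total RNA, against 1.29% and 1.69% in Anaef RPF and 1.45% and 1.59% in WT RPF. Trav10 held 3.53%, 1.72%, 1.51% and 2.58% in Anaef total RNA and 1.88%, 2.34%, 1.24% and 1.94% in WT total RNA, against 0.889% and 0.866% in Anaef RPF and 1.17% and 0.856% in WT RPF. The genotypes overlapped for both segments in total RNA. Trav12-2 held 0.871%, 1.10%, 2.64% and 2.35% in Anaef total RNA and 2.09%, 1.89%, 1.12% and 2.32% in WT total RNA, with Anaef replicates 5 and 6 the lowest. Trav12d-2 and Trav12n-2 had the same counts in every library, at 1.37% to 1.98% in Anaef total RNA and 1.44% to 2.90% in WT total RNA. Trav4d-4 held 1.07% to 1.74% in Anaef total RNA and 1.67% to 2.44% in WT total RNA, and its log2 value of Anaef over WT was −0.41 (SE 0.26), not called.

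Segments of invariant T cells were rare. Trav1, used by mucosal-associated invariant T cells, had 22 and 5 counts in Anaef RPF and 14 and 20 in WT RPF, and 6, 4, 74 and 97 counts in Anaef total RNA and 145, 227, 23 and 83 in WT total RNA. Its log2 fold change of Anaef over WT in total RNA was −1.49 (SE 0.79, adjusted p = 0.907). Trav11, used by invariant natural killer T cells, shares its coding sequence with Trav11d (100% identity). Their family held 0.362% and 0.371% of Trav counts in Anaef RPF and 0.374% and 0.335% in WT RPF, against 0.423% to 1.58% in Anaef total RNA and 0.785% to 1.65% in WT total RNA. This family also holds the pseudogene Trav11n, which adds to the total RNA shares only. Trav11n had 0 RPF counts, 226 counts in Anaef total RNA and 181 in WT total RNA. By genotype Trav11 had −0.31 (SE 0.45) in total RNA and 0.41 (SE 0.31) in RPF on the log2 scale, neither called.

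The copies of the alpha locus contributed steadily. Rows named without a letter held 34.5% to 34.8% of Trav counts in Anaef RPF and 35.2% to 35.5% in WT RPF, against 40.0% to 42.5% in Anaef total RNA and 37.1% to 41.1% in WT total RNA. Rows named d held 34.7% to 35.4% in Anaef RPF and 34.6% to 34.8% in WT RPF, against 31.5% to 32.7% in Anaef total RNA and 32.0% to 34.0% in WT total RNA. Because reads are shared, these shares count some reads more than once. The 10 segments with a name for both the alpha and the delta chain held 8.79% to 8.99% in Anaef RPF and 8.67% to 9.41% in WT RPF, against at most 7.17% in Anaef total RNA and at most 7.46% in WT total RNA. Of these, Trav14d-3-dv8 alone, a row of the Trav14 family, held 4.29% to 4.41% in Anaef RPF and 3.84% to 4.31% in WT RPF. In WT total RNA this row held 1.54% to 2.13%. Whether the higher footprint share also holds for the others of the 10 was not tested.

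The 16 pseudogenes had 0 RPF counts and 5625 total RNA counts. Trav13-3 had 691 counts in Anaef total RNA and 665 in WT total RNA, Trav8-2 had 480 in Anaef and 536 in WT, and Trav9n-1 had 500 in Anaef and 341 in WT. None of the 16 has an annotated coding sequence. Across the table, 126 of 5283 rows without a coding sequence and with at least 100 total RNA counts had any RPF count, against 11301 of 12096 rows with one. Of the 8 lower calls in Anaef all were pseudogenes, and of the 9 in WT 7 were, the others being Trav7-1 and Trbv2. With 0 RPF counts, as in almost all rows without a coding sequence, a pseudogene could not be called higher. The lower calls of pseudogenes are therefore no measure of ribosome occupancy.

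The measured spread between libraries was larger in total RNA than in footprints. The comparison is unlike, since RPF had 2 pools a group, each of 2 samples, and total RNA had 4 libraries a group. Pooling and the number of libraries both bear on the spread, so it does not show that usage is steadier in footprints. Over 84 Trav members with a mean of at least 50 counts in every group, the median coefficient of variation of the share was 9.05% in Anaef RPF and 11.4% in WT RPF, against 30.1% in Anaef total RNA and 22.3% in WT total RNA. Over 13 Trbv members it was 12.2% in Anaef RPF and 13.1% in WT RPF, against 35.4% in Anaef total RNA and 31.8% in WT total RNA. Counting error alone gives 5.70% to 10.4% in these groups.

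The other genes of the receptor complex are given for comparison. Trac, the alpha constant region, had a log2 ratio of RPF over total RNA of 1.48 in Anaef and 1.95 in WT. The beta constant regions Trbc1 and Trbc2 had 2.23 and 1.38 in Anaef and 2.05 and 1.25 in WT. Of the signalling chains, Cd3d and Cd3g had 1.66 and 1.99 in Anaef and 2.02 and 2.24 in WT, while Cd3e had −0.73 in Anaef and −0.48 in WT. None was called by genotype in either assay. The ratio of Trav to Trac counts was 2.45 and 2.66 in Anaef RPF and 1.84 and 1.74 in WT RPF, and that of Trbv to Trbc counts was 0.240 and 0.203 in Anaef RPF and 0.183 and 0.194 in WT RPF. In total RNA these ratios overlapped between the genotypes, with Trav to Trac at 1.85 to 3.41 in Anaef and 1.61 to 3.42 in WT, and Trbv to Trbc at 0.154 to 0.274 in Anaef and 0.132 to 0.202 in WT. In total RNA the Trav to Trbv count ratio was 4.04 to 5.59 in Anaef and 4.59 to 6.18 in WT, and in RPF 4.30 and 4.35 in Anaef and 4.70 and 4.08 in WT. The same read can stand in several Trav rows, while most Trbv rows share no windows. The ratios with Trav counts are therefore not ratios of transcripts, and repeated counting may differ between the assays. Dntt, the enzyme that adds bases at the joints during recombination, had 14.4, 7.43, 8.29 and 8.23 CPM in Anaef total RNA and 3.03, 5.02, 2.13 and 4.64 CPM in WT total RNA. Every Anaef library lay above every WT library, and the difference of 1.36 on the log2 scale (SE 0.36, adjusted p = 0.594) did not pass the test.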

How the data were processed

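Total RNA and ribosome-protected fragments were measured in the groups given above, as far as the labels say. The values were raw counts per gene deposited by the authors, without normalization, and the RPF columns hold counts after masking, per the file headers. TopHat 1.4.1 and the build GRCm38 are named in the submitters' processing notes. No source used here gives the counting tool, its handling of reads with several matches or the masked regions, and this bears on the Trav rows, whose copies share reads.

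The whole table was fitted with edgeR 4.0.16 in R 4.3.3 (quasi-likelihood F test, TMM, filterByExpr, Benjamini-Hochberg adjustment at 0.05), within each assay for genotype, within each genotype for RPF over total RNA, and over all 12 libraries for the interaction. The test needs no replicate numbers. A member that passed the filter on low counts only through 1 group had to differ, so counts over tested members are descriptions. Each SE is the size of the fold change divided by the root of its F value. CPM used TMM-scaled library sizes. Usage is the percent of the counts of the chain in a library, and floors are 3 counts of that total. Floors take in counting error alone, because PCR reads lack molecular identifiers and are not independent.

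Sequences, coordinates and gene classes came from GENCODE M21 on GRCm38, and sequences were compared with Biopython 1.88. The scripts were tested on simulated data. The members and the lists of markers and receptor genes were chosen with earlier results of these data known. Named were the 10 leading Trav and Trbv rows of WT total RNA, the called members (the 10 largest a direction), the 3 smallest p a direction where none was called, segments of invariant cells and Trbv31, the 3 leading pseudogenes, the rows next to the threshold and the 3 largest and smallest ratios of RPF to total RNA in WT. Alternatives were DESeq2 1.42.0, RLE size factors, scaling to summed segment counts, no filter on low counts, families summed, other member thresholds, the inverse Simpson index and fits that each lack 1 library. A weight for reads shared by copies, and the chain without Trbv13-2, were chosen after seeing the data.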

Additional observations from a re-analysis of the deposited data

Results flagged for a closer look

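Shares of segments and library measures were checked in 124 groups of 4 total RNA libraries for 1 library far from the others, and 9 stood apart, where chance gives about 1 in 20. Anaef replicate 6 stood apart in 2 measures: Trbv13-2 took 62.4% of its Trbv counts, against 40.5% to 44.0% in the other Anaef libraries, and its effective number of Trbv segments was 4.35, against 7.46 to 7.76. WT replicate 3, the shallowest library, stood apart in 3 segments. Its share of Trbv13-1 was 0.641%, against 2.84% to 3.12% in the other WT libraries. Its share of Trbv19 was 0.428%, against 2.33% to 2.48%, and that of Trav13-3, a pseudogene, was 0.302%, against 0.588% to 0.627%. In WT replicate 4 Trbv13-2 took 30.8%, against 35.8% to 36.5%, and in WT replicate 1 Trbv12-1 took 0.855%, against 0.321% to 0.395%. The pseudogene Trav22 was seen in 1 library a genotype, at 0.00445% of Trav counts in Anaef replicate 7 and 0.0269% in WT replicate 2. These were 2 counts in Anaef, below the floor of 0.00668% of that library, and 12 in WT. With the other libraries at 0, any count stands apart by this rule, so the Trav22 entries among the 9 carry no weight.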

How the results depend on the processing

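No member was called by genotype in total RNA, or in the interaction, under any alternative run. In RPF by genotype 2 members passed with no filter on low counts, Trav12-2 and Trbv5, and none under the others. For RPF over total RNA in Anaef, 54 members were called with scaling to summed segment counts, 29 families with families summed, and 52 to 89 with a library left out, of which 52 came without RPF pool 3B and 64 without 4B. In WT 64 were called with that scaling, 26 families with families summed, and 71 to 102 with a library left out. The smaller counts with families summed follow from fewer rows. The difference in Trbv effective number ranged from −1.89 to −0.757 with a library left out and was 0.127 without Trbv13-2, an alternative chosen after seeing the data. Of the named members' values with a library left out, 445 kept their direction and side of the threshold and 15 calls were lost, Trav7-1 and Trbv12-2 in WT in 5 each, Trav20 in 3, Trav4d-2 and Trbv30 in 1 each. For Trbv13-2 in RPF over total RNA in Anaef, not called, the value of −0.09 ranged from −0.283 to 0.0959 with a library left out, above 0 without Anaef replicate 6 or pool 4B, and was 0.0276 with DESeq2 and 0.0281 with RLE size factors. Under other settings 298 kept both. With scaling to summed segment counts, RPF over total RNA in WT turned to −0.89 for Trbv12-2 and −1.10 for Trbv13-2, both called as lower, and Trbv13-2 in RPF by genotype turned to −0.0778, not called. That scaling made Trav7-1, Trbv2 and Trbv13-2 in Anaef pass as lower, and turned Trbv12-2 in Anaef from 0.42 to −1.26, called as lower. With no filter on low counts Trav12-2 passed and Trbv12-2 in WT did not. The cause of these changes was not tested. Members with few counts and RPF with 2 pools a group limit the tests. No paired analysis was possible because the groups compared share no replicate numbers.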
